A study of Saccharomyces cerevisiae with 4 samples.

Results

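The comparison describes what had changed in sporulating yeast after 40 min in rich medium, counted from the moment before the medium was changed. It took 1 array of cells at 40 min in YPD and 1 array of the same culture at 5.5 h in sporulation medium (SPM), and all 6218 open reading frames (ORFs) printed on the array were its members, the same 6218 as in the whole series. These 2 arrays belong to a series of 4, of which the other two were taken at 0 and 20 min in YPD and are quoted here only as single values on the way. All cells were of GF18, an SK1 diploid whose NDT80 was tagged with HA and driven by the promoter of SPS4, so both sides of the comparison carried this allele. Ndt80 activates the middle genes of sporulation, of which SPS4 is one. Cells were grown to saturation in glucose medium (YPD), grown overnight in acetate medium (YPA), and moved to SPM, which holds acetate and little else; after 5.5 h, by the sample titles (the source names give 5 hours), part of the culture was spun down and resuspended in YPD. The Cy3 channel of each array held the same RNA, that of wild-type SK1 diploids (NKY1551) grown in YPA, a different strain without the NDT80 allele. The authors followed wild-type cells for longer in SPM on other arrays, which were not used here. No GF18 culture was followed in SPM beyond 5.5 h. The medium, the handling at transfer and the 40 min that passed therefore cannot be told apart, and in a bulk sample fewer cells of a kind and less RNA per cell cannot be told apart.

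Diploid yeast that lack nitrogen and a fermentable sugar leave the mitotic cycle, replicate and recombine their DNA under the early regulators Ime1 and Ime2, and then, once Ndt80 is made, pass through both meiotic divisions and wrap the nuclei in spore walls. Cells returned to rich medium early can abandon this course and bud again, whereas cells past the point of commitment finish their spores. In growing yeast, rich medium also acts through the glucose-sensing, protein kinase A and TOR pathways. These govern ribosome production, stress genes and the choice between fermentation and respiration. The authors report that wild-type cells past commitment answered YPD in a markedly different way. A net comparison at 40 min cannot separate changes along the sporulation course from changes brought by the medium.

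In the text the log2 ratio of a gene is its sample signal over the YPA reference on 1 array, and its change is the ratio at 40 min minus that at 5.5 h. Each ORF was printed as 2 adjacent spots, and errors are the SD of these 2 values, so they cover spot noise and not the spread between cultures. A gene is said to have risen or fallen when its change reached 2-fold in that direction on each spot as well as in their mean. With 1 array per side there was no test and no p-value. By this rule 866 of 6218 genes rose (13.9%) and 1231 fell (19.8%), and the counts for gene lists below are read beside these 2 percentages. Falls were more numerous, though hardly so when the arrays were only centred on their medians (1006 rises and 1031 falls), and rises were larger: 391 genes rose and 241 fell at least 4-fold, 193 rose and 29 fell at least 8-fold, and 101 rose and 7 fell at least 16-fold. Over the whole array the median was -0.22, and 1055 genes (17%) stayed within 1.3-fold in the mean and both spots. Genes that rose moved from a median log2 ratio of -1.11 to 1.32, and genes that fell from 1.46 to -0.18, so that the typical riser began below the growing reference and ended above it, and the typical faller began above and ended near it.

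The 2 arrays were alike in how well duplicate spots agreed, but not in intensity. After local background was subtracted, gene spots had a median Cy5 intensity of 1427 at 5.5 h and 2039 at 40 min. In Cy3 the medians were 1782 and 1237. Duplicate spots correlated at r = 0.980 and 0.982 across genes. The SD of a change between duplicate spots was 0.305, and 46 genes had an SD over 1. Background was set at the 95th percentile of the spots printed with buffer alone, 1316 in Cy5 at 5.5 h and 2034 at 40 min. These cut-offs lay near the median gene spot, while Arabidopsis control spots had Cy5 medians of 222 and 221. A gene not above background may therefore still have held signal. By these cut-offs 2507 genes were above background in Cy5 on both arrays, 720 at 40 min only, 874 at 5.5 h only and 2117 on neither. Of the genes that rose, 304 were measured on both sides and 478 at 40 min only; of those that fell, 651 were measured on both sides and 474 at 5.5 h only. For a gene measured on 1 side, "at least" marks a fold that is a bound, taken from the Cy5 channel alone. The log2 change printed with it is the plain difference of the 2 arrays, 1 of which was not above background. The bound is not a floor for that difference, because the 2 are computed from different values. For SIS1 the bound was 5.16-fold and the plain change 4.83-fold. The bounds of SIS1, PDC1 and IMD3 exceeded their plain changes and are not printed with them below. The label was checked on marker genes. All 10 markers of mid-sporulation were above background on both arrays. Their log2 ratios were 4.36 to 7.62 at 5.5 h and 3.53 to 6.69 at 40 min. None of them rose and 5 fell, with a median change of -1.11. Of 8 genes that mark the start of the mitotic cycle none rose, and 1 was above background at 40 min. Of 12 haploid genes none rose and 5 fell, and 5 were above background at 5.5 h and 2 at 40 min. Some stood far above the diploid reference, with log2 ratios of up to 4.54 at 5.5 h and 2.44 at 40 min.

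**Figure D1:**
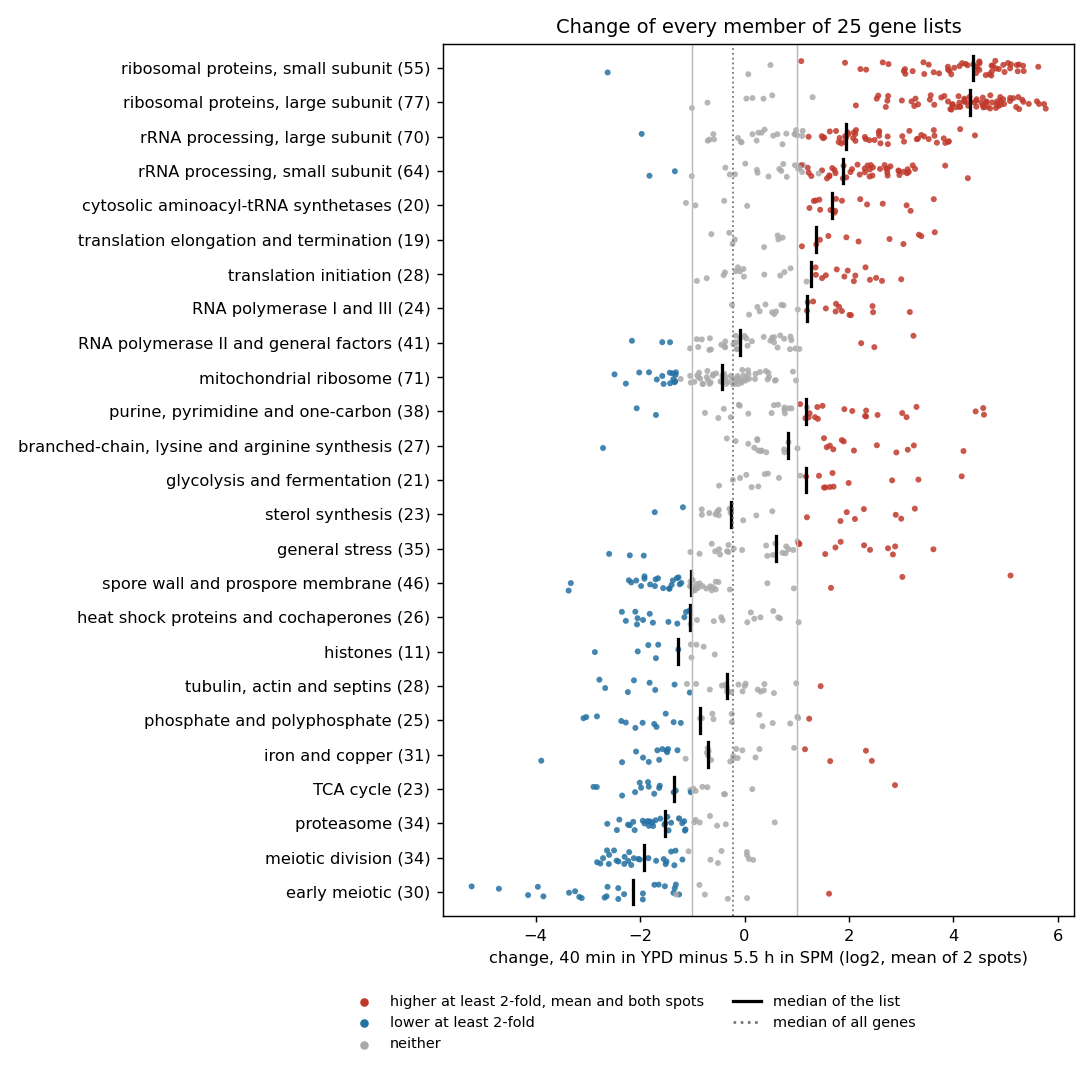
Change at 40 min (log2, horizontal axis) of every member of 25 gene lists (rows, with the number of members on the array); each point is 1 gene, the bar is the median of the list, the dotted line is the median of all genes (-0.22) and the grey lines mark 2-fold. The ribosomal protein lists sit above 4 in their medians (4.31 and 4.38) and the early meiotic list at -2.13, while lists such as the mitochondrial ribosome (-0.43) stay near the median of all genes.

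The sporulation programme did not move as a block. By list medians the early meiotic and division genes fell further than the genes of spore formation, and a few genes of the last steps rose. Of 30 early meiotic genes 24 fell and 1 rose, with a median of -2.13; of 34 genes of the meiotic divisions 26 fell and none rose, with a median of -1.92; of 46 genes of the spore wall and prospore membrane 21 fell and 3 rose, with a median of -1.03. In medians of the log2 ratio, the early list went from 2.46 at 5.5 h to 0.12 at 40 min, the division list from 3.66 to 1.46, and the spore list from 5.98 to 4.81. Of the early genes 18 were above background at 5.5 h only and 3 on neither array, so that their ratios at 40 min give no level. With such genes taken at their bound the median changes were -1.18 for the early list, -1.5 for the division list and -1.03 for the spore list, which turns the order of the first 2.

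MEK1, which encodes a kinase that keeps meiotic breaks from being repaired off the sister chromatid, had a log2 ratio of 4.76 at 5.5 h and -0.47 at 40 min and fell by 5.23 ± 0.67 on the log2 scale, at least 9.68-fold. DMC1, the meiotic recombinase, went from 4.04 to -0.67, at least 9.66-fold lower. HOP1, of the chromosome axis, went from 4.14 to 0.18 (at least 5.63-fold lower) and ZIP1, of the synaptonemal complex, from 3.46 to 0.34 (at least 2.92-fold). On the 40 min array none of these 4 was above background in Cy5. The same course was seen for ECM11 and GMC2, partners of the synaptonemal complex outside the fixed lists, which fell at least 5.52-fold (a change of -3.50 ± 0.36) and at least 1.88-fold (-3.28 ± 0.25). SRT1, a cis-prenyltransferase gene, made the largest fall of all, by 5.53 ± 0.12 (from 3.72 to -1.81, at least 13.4-fold); it was named after its value was seen. The exception among the early genes was CSM4, needed for telomere-led chromosome movement, which rose by 1.62 ± 0.09, from -0.21 to 1.41.

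Of 19 meiotic regulators 9 fell, 1 rose and 9 passed in neither direction (median -1.12). IME1, the inducer of the early genes, had log2 ratios of -0.41 at 5.5 h and -4.54 at 40 min, a fall of 4.13 ± 0.02 (17.5-fold) that put it far below the acetate-grown reference. IME2, which encodes the kinase downstream, fell by 3.16 ± 0.36 from 5.78 to 2.62 and so remained well above it. SUM1, the repressor that occupies middle promoters in growing cells, rose from -0.55 to 1.13, by 1.68 ± 0.22. The genes of its partners RFM1 and HST1, which sit in the same complex, fell by 2.51 ± 0.11 and 2.28 ± 0.01. NDT80 fell by 1.17 ± 0.04, from 6.79 to 5.62, and SPS4, whose promoter drove it, went from 7.62 to 6.69, a change of -0.93 ± 0.04. The reference was not above background on both arrays for NDT80, SPS4 or IME2, so that these ratios have no exact level.

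Among the genes of the divisions, all the B-type cyclin genes on the list fell: CLB6 by 2.82 ± 0.11, CLB4 by 2.76 ± 0.05, CLB5 by 2.6 ± 0.06, CLB1 by 2.50 ± 0.03 and CLB3 by 1.34 ± 0.14. The securin gene PDS1 fell by 2.71 ± 0.30 and the APC activator gene CDC20 by 2.63 ± 0.18. AMA1, the APC activator that works only in meiosis, had log2 ratios of 6.28 and 5.77, a change of -0.51 ± 0.06, and did not pass 2-fold. At 40 min the ratios of these genes still lay above 0, between 0.65 for CLB5 and 5.77 for AMA1.

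Against this stood the markers of mature spores, 4 of which rose while 1 fell and 1 passed in neither direction. This list was set up to describe the samples and has 6 genes. SPS100, a gene of late wall maturation, was at a log2 ratio of 0.07 at 5.5 h, -0.13 at 0 min, -0.09 at 20 min and 5.16 at 40 min, a rise of 5.09 ± 0.72 (at least 9.86-fold) that was not seen at 20 min. DIT1, for the first step of dityrosine synthesis, went from 3.34 to 6.36, up by 3.02 ± 0.17 (8.12-fold), and DIT2, for the next step, from 3.40 to 5.06, up by 1.66 ± 0.14. SIP18, a desiccation gene, went from -1.44 to 1.3, up by 2.75 ± 0.09. For SPS100, DIT1 and DIT2 the reference was not above background on both arrays. In the Cy5 channel alone their changes were 4.77, 3.05 and 1.85. CRR1, a wall glycosidase gene, fell by 1.40 ± 0.40, and HSP12 had a change of -0.31 ± 0.06. The genes with the largest falls among the spore genes were SMA2 (6.32 to 2.95, down by 3.37 ± 0.00), SPO73 (4.69 to 1.36) and SPO21, which encodes part of the meiotic outer plaque where the prospore membrane starts (6.17 to 4.00).

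**Figure D2:**
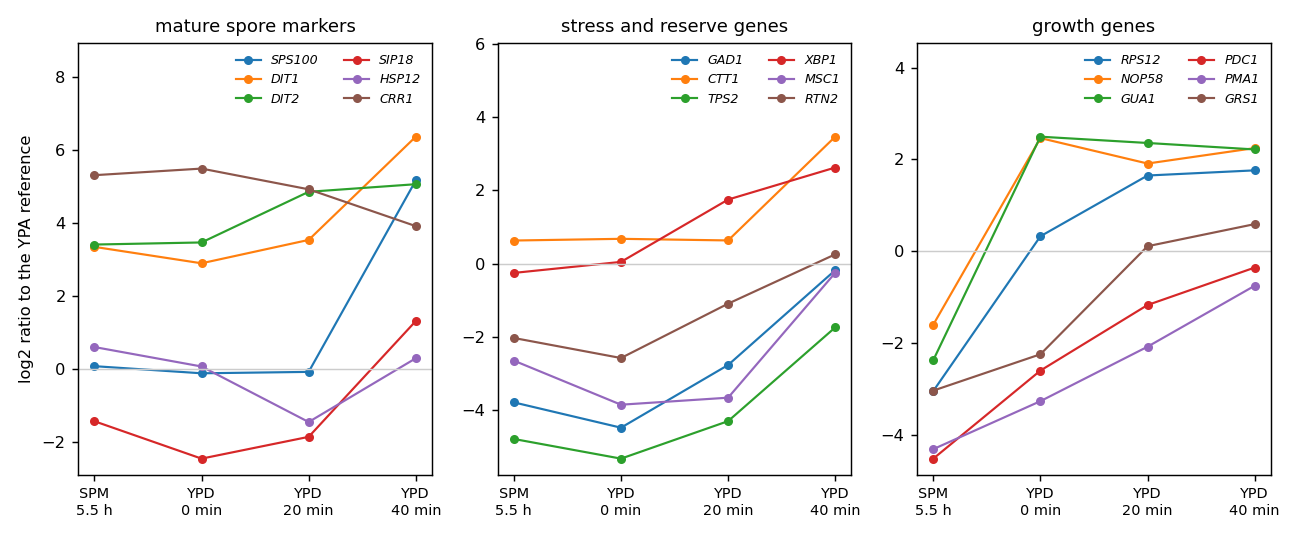
Log2 ratio to the YPA reference (vertical axis, mean of 2 spots) of 18 genes on the 4 arrays, in 3 panels; each line is 1 gene and there is 1 array per point. SPS100, DIT1, SIP18, CTT1, MSC1 and TPS2 lie close to their 5.5 h value or below it until 20 min and rise on the 40 min array, whereas NOP58 and GUA1 had made all of their rise on the 0 min array. DIT2, XBP1, GAD1 and RTN2, in the same panels as the late risers, were already up at 20 min, by 1.45, 2.01, 1.02 and 0.94.

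Ribosomal protein genes made up most of the largest rises. In the large subunit 70 of 77 rose and in the small subunit 52 of 55, with medians of 4.31 and 4.38 and median log2 ratios that went from -2.63 to 1.83 and from -2.49 to 1.78. Of the 12 largest rises among genes measured on both sides all but 1, RHO4, were of this class. RPS12 went from -3.04 to 1.76, up by 4.80 ± 0.11 (27.9-fold), and RPS11A from -2.73 to 2.01, up by 4.74 ± 0.16. RPL23B, RPL35B, RPS1A, RPS15, RPS18B, RPS20, RPL2B and RPS4B rose by 4.43 to 4.63. RPS1B ranked first at 5.62, but its spots differed by an SD of 2.05, since 1 spot at 5.5 h read -6.14 and the other -3.35. RPL13A had the largest change on the array, 5.77 ± 0.23, at least 21.4-fold, with no signal above background at 5.5 h. Also outside the list, ASC1 (a protein of the small subunit) and TMA19 (ribosome-associated) rose at least 20.4-fold (4.78 ± 0.28) and at least 14.2-fold (3.99 ± 0.10).

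Most ribosomal proteins of yeast have 2 genes, and 55 such pairs had both copies on the array. Both copies rose in 46 pairs, 1 copy in 9, and in no pair did both stay. The 2 changes differed by a median of 0.50 log2 units, and 38 pairs lay within 1 unit. In the 9 split pairs the 2 changes were mostly far apart, RPL40A and RPL40B (2.56 and 1.3) being the closest. In several of them the copy that rose was above background at 40 min only. RPL11A changed by 0.15 ± 0.08 and RPL11B by 5.08 ± 0.14 (at least 13.6-fold). RPL43B changed by -0.71 ± 0.01 and RPL43A by 4.86 ± 0.27 (at least 11.6-fold). RPL8B changed by 0.53 ± 0.60 and RPL8A by 4.57 ± 0.05 (at least 12-fold). In the pair of RPS19 only the B copy passed the background cut-off: RPS19A was above background on neither array, and RPS19B rose by 4.73 ± 0.15 (at least 10.2-fold). The widest was RPS21A, which fell by 2.62 ± 0.08 from a log2 ratio of 3.95 (at least 2.81-fold), against a rise of 4.12 ± 0.25 for RPS21B from -2.02 (at least 14.4-fold). RPL5, which has no second copy, changed by 0.04 ± 0.14. These probes are PCR products, on which near-identical copies share signal. How much of each spot came from the other copy was not tested. Nor was it tested which PCR product the spots of RPL11A, RPL8B, RPS19A, RPS21A and RPL5 hold, so their values are those of the spots.

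Some spots with other names moved as ribosomal protein genes did. RHO4, the gene of a small GTPase, went from -3.14 to 1.36 (up by 4.49 ± 0.10), and DYN1, the dynein heavy chain gene, from -3.12 to 2.03 (up by 5.15 ± 0.29, at least 7.65-fold). Their neighbours on the chromosome, TRM2 and RPS21A, fell from ratios of 4.75 and 3.95, at least 5.65-fold (-3.81 ± 0.13) and at least 2.81-fold. On the slide these 4 genes were printed in the same row of 2 blocks, RHO4 and RPS21A in one and DYN1 and TRM2 in the other, 4 columns apart in each. Which PCR product each of these spots holds was not tested, and their values are those of the spots.

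Others lay beside a strong gene. SFT1 (4.1 ± 0.03) neighbours RPL14A (4.44 ± 0.11, at least 16.5-fold), YGL102C (4.06 ± 0.14) neighbours RPL28 (3.96 ± 0.02), and YLR076C (3.77 ± 0.01) neighbours RPL10 (3.57 ± 0.13). YGR160W, which rose by 5.02 ± 0.11 (at least 15.1-fold), neighbours NSR1, a nucleolar protein gene (2.03 ± 0.01). Of the ORFs without a RefSeq locus tag, 52 that rose had a neighbouring annotated gene by number, and in 36 of the 52 such a neighbour rose too; among 431 that did not rise, 91 had a neighbour that rose. For falls the numbers were 41 of 71 and 125 of 412. Double-stranded probes read both strands, so the share of the neighbour's RNA in these values was not tested. YCR031, an old name in the file for RPS14A, rose by 4.18 ± 0.11.

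**Figure D3:**
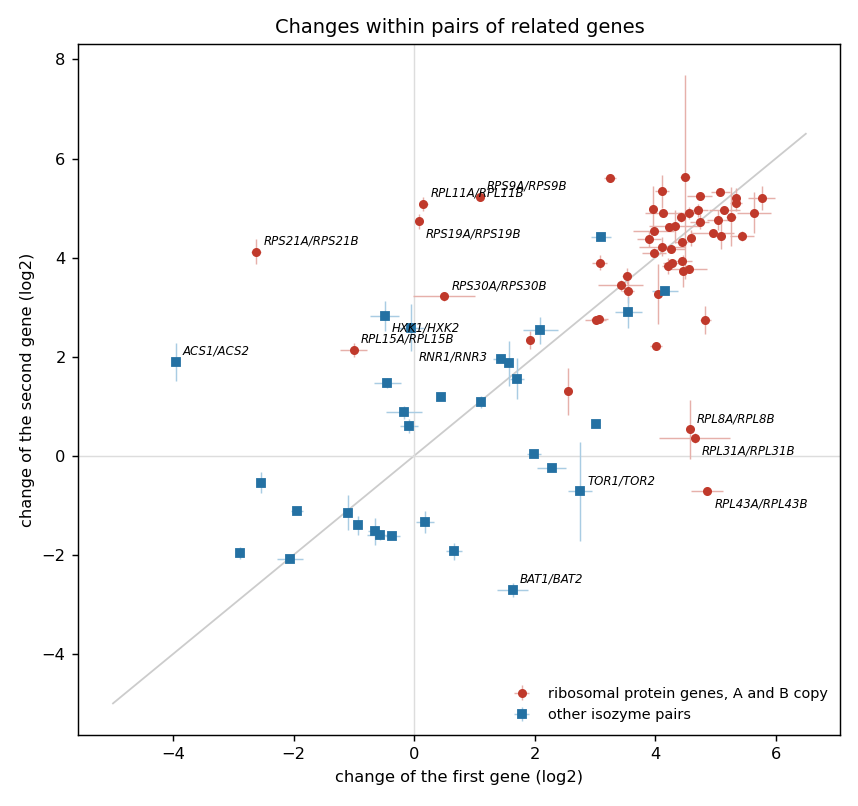
Change at 40 min (log2) of the first gene of a pair (horizontal axis) against the second (vertical axis), for the A and B copies of 55 ribosomal proteins (circles) and 31 isozyme pairs (squares); bars are the SD of 2 spots and the line marks equal change. Most ribosomal protein pairs cluster between 3 and 6 on both axes; the pairs of ACS1 (-3.96), CIT1 (-2.89) and RPS21A (-2.62) lie furthest left.

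The machinery that builds ribosomes rose with them, but by less. Of 64 genes of small-subunit rRNA processing 44 rose (median 1.89), and of 70 of the large subunit 46 rose (median 1.94). With dim sides at their bound, and genes above background on neither array at 0, the medians were 1.02 and 1.05. NOP58, a core protein of the box C/D particles, went from -1.59 to 2.25, up by 3.84 ± 0.32 (14.3-fold); its change had been 4.06 on the 0 min array. These genes ended above the YPA reference, at median log2 ratios of 1.93 and 1.74, from about 0 at 5.5 h.

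Of 24 genes of RNA polymerases I and III 13 rose and none fell (median 1.2), led by RPA49 (3.16 ± 0.28, at least 3.0-fold), a subunit of polymerase I alone. Of these 24 genes 9 were above background at 40 min only and 10 on neither array. With dim sides at their bound the median was 0.19, against 0.0 for the polymerase II list that follows. Of 41 genes of polymerase II and its general factors 3 rose and 3 fell (median -0.08, which was between -0.08 and 0.16 under other scalings). The 3 that rose were RPB5 (-1.0 to 2.23, up by 3.23 ± 0.20, at least 4.63-fold), RPO26 (-0.62 to 1.87, up by 2.48 ± 0.21) and RPB8 (0.15 to 2.39, up by 2.23 ± 0.14, at least 3.50-fold). All of these encode subunits shared by the 3 nuclear RNA polymerases, and none of the subunits particular to polymerase II passed 2-fold; SPT15, the TATA-binding protein gene, fell by 1.58 ± 0.29 (at least 2.07-fold), TAF6 by 1.43 ± 0.01 and TAF14 by 2.16 ± 0.18.

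Genes of translation factors rose or did not pass. Of 28 initiation factor genes 14 rose and none fell (median 1.27), and of 19 elongation and termination genes 11 rose and none fell (median 1.37). PRT1, of the eIF3 core, went from -1.74, with no signal above background, to 1.26 (3.0 ± 0.14), TIF4631, the eIF4G scaffold, from -1.58 to 1.05 (2.63 ± 0.15), and CDC33, the cap-binding eIF4E, from -0.27 to 2.13 (2.40 ± 0.33). YEF3, the fungal elongation factor 3, went from -2.08 to 0.96 (3.04 ± 0.14), and RLI1, needed to recycle ribosomes, from -2.03 to 1.36 (3.38 ± 0.00, at least 6.75-fold). The eIF4A genes TIF1 and TIF2, which encode the same protein, had changes of -0.17 ± 0.30 and 0.88 ± 0.13, and neither passed.

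Of 20 genes of the cytosolic aminoacyl-tRNA synthetases and their cofactor 16 rose and none fell (median 1.68), the highest share of any list after the ribosomal proteins. GRS1 (glycine) went from -3.03 to 0.59, up by 3.62 ± 0.23 (at least 9.48-fold), and CRS1 (cysteine) and KRS1 (lysine) rose at least 2.68-fold (3.18 ± 0.22) and at least 5.19-fold (3.10 ± 0.31). The 4 that did not pass were CDC60, FRS2, GLN4 and TYS1, the last at -1.12 ± 0.26. FRS1 rose by 1.87 while FRS2, the other subunit of the same phenylalanine enzyme, had a change of -0.39. Of 7 chaperones that sit on the ribosome 4 rose, namely SSZ1 (3.61 ± 0.24, at least 5.36-fold), ZUO1 (3.10 ± 0.03, at least 6.0-fold), SSB2 (2.32 ± 0.00) and EGD2 (2.16 ± 0.15). SSB1, a near copy of SSB2, was above background on neither array.

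The protein genes of the mitochondrial ribosome had none of these rises. Of 71 none rose and 15 fell (21.1%, near the 19.8% of the array), and the median was -0.43. MRPL31 fell by 2.49 ± 0.18 (2.66 to 0.17), MRPL37 by 2.27 ± 0.08 (4.22 to 1.94) and MRPS17 by 2.02 ± 0.01 (4.64 to 2.63).

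Heat shock and proteasome genes fell in number, while genes of the CCT chaperonin and prefoldin, which fold actin and tubulin, did not share this. Of 14 of the latter 5 rose (TCP1, CCT2, CCT6, PFD1 and PAC10, the last above background on neither array) and 1, GIM5, fell (median 0.23). Of 26 heat shock proteins and cochaperones 13 fell and none rose (median -1.05). The Hsp90 genes HSC82 and HSP82 fell by 2.06 ± 0.22 and 2.09 ± 0.05, and CDC37, whose protein brings kinases to Hsp90, by 2.35 ± 0.12 (1.61 to -0.73). SIS1, an Hsp40 gene, fell by 2.27 ± 0.09 to no signal above background, and KAR2, the Hsp70 of the endoplasmic reticulum, by 2.38 ± 0.14 (0.43 to -1.95). HSP82 had been lower still on the 20 min array, at a ratio of -3.15 against -2.14 at 40 min.

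Of 34 proteasome genes 26 fell and none rose (median -1.52). The falls covered both parts of the particle: RPN3 and RPN5 of the regulatory lid fell by 2.63 ± 0.27 (at least 4.85-fold) and 2.44 ± 0.15, and PRE6 of the core by 2.40 ± 0.22. The median log2 ratio of the list went from 0.25 to -1.36, so that it ended below the reference. RPN4, the activator of these genes, had log2 ratios of -2.06 and -3.87 but was above background on neither array. RPN10 had a change of 0.58 ± 0.06. Of 31 autophagy genes 10 fell and 1 rose (median -0.78), among them ATG3, a conjugating enzyme gene of Atg8, by 2.46.

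In carbon metabolism many genes of fermentation rose and many of the TCA cycle fell. Of the 31 isozyme pairs looked at across all pathways, chosen after values were seen, both genes rose in 7, both fell in 3, neither passed in 2, 1 gene passed in 17 and the genes moved in opposite directions in 2. Of 21 genes of glycolysis and fermentation 11 rose and none fell (median 1.18). PDC1, the main pyruvate decarboxylase gene, went from -4.51 to -0.35, a change of 4.16 ± 0.21, with no signal above background at 5.5 h, and PDC5, its isozyme, rose by 3.33 ± 0.01. HXK2, the hexokinase of glucose growth, rose by 2.83 ± 0.30 (at least 3.06-fold), while HXK1 changed by -0.49 ± 0.24, and CDC19, the main pyruvate kinase gene, rose by 1.99 ± 0.12 while PYK2 changed by 0.03. At 40 min the median log2 ratio of the list was still -1.67, from -3.08 at 5.5 h, so that most of these genes remained below acetate-grown cells. The list's median change had been -0.35 at 20 min.

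ACS1 and ACS2 encode the acetyl-CoA synthetases of acetate and of glucose growth. ACS1 fell from -0.87 to -4.83, by 3.96 ± 0.02 (15.5-fold), and ACS2 rose from -3.67 to -1.78, by 1.89 ± 0.39 (at least 2.19-fold). ACH1, for a CoA transferase of acetate metabolism, fell by 2.91 ± 0.03. The list of gluconeogenesis, the glyoxylate cycle and acetate use, to which these genes belong, had 6 falls (25%, against 19.8% of the array) and 3 rises among 24 genes, with a median of -0.33. Of 23 TCA cycle genes 14 fell and 1 rose (median -1.36): CIT1, the mitochondrial citrate synthase gene, went from 0.83 to -2.06 (at least 1.40-fold lower in Cy5 alone), SDH4 from -0.42 to -3.25 and FUM1 from -2.72 to -5.07. Of 38 respiratory chain and ATP synthase genes 13 fell and 1 rose (median -0.78), and POR1, the mitochondrial porin gene, fell by 2.55 ± 0.00.

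Of 18 hexose transporters and sensors 5 rose and 2 fell. HXT3, a transporter of glucose-rich medium, went from -2.54 to 0.75, up by 3.30 ± 0.00; HXT1 rose by 2.43, with spots that differed by an SD of 1.35. HXT9 and HXT11, of the drug resistance branch of the family, fell at least 2.61-fold and 3.74-fold. PMA1, the plasma membrane proton pump gene, rose by 3.56 ± 0.22 (-4.30 to -0.75, at least 7.61-fold), and PMA2, its minor copy, by 2.90 ± 0.31.

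Many genes that make the building blocks of protein and RNA rose. Of 38 genes of purines, pyrimidines and one-carbon units 20 rose and 2 fell (median 1.18). Among the largest rises were those of the branch to GTP: IMD3 and IMD4, which encode IMP dehydrogenase, had changes of 3.10 ± 0.17, with no signal above background at 5.5 h, and 4.43 ± 0.05 (at least 7.78-fold), and GUA1, GMP synthase, rose by 4.58 ± 0.28 (-2.37 to 2.22, at least 14.1-fold). URA7, for CTP synthase, rose by 4.57 ± 0.03 (at least 4.80-fold), whereas URA8, the second CTP synthase gene, changed by -0.50 ± 0.13. SHM2, the cytosolic serine hydroxymethyltransferase, rose by 3.02 ± 0.01 (at least 3.30-fold). The genes that fell were ADE6 and GCV3, a subunit of mitochondrial glycine cleavage.

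Of 27 genes of branched-chain amino acid, lysine and arginine synthesis 12 rose and 1 fell (median 0.84). In the lysine pathway LYS20, LYS21, LYS12, LYS9 and LYS1 rose, by 2.09 to 2.53 for the homocitrate synthases, 4.19 ± 0.13 (at least 9.65-fold) for LYS12 and 3.24 ± 0.08 (at least 4.0-fold) for LYS9, while LYS2 and LYS4 did not pass. ILV3 and ILV2 of the branched-chain pathway rose by 3.13 ± 0.09 and 2.91 ± 0.15. BAT1, the mitochondrial aminotransferase of this pathway, rose from 1.98 to 3.61 and BAT2, its cytosolic form, fell from 0.47 to -2.24, so that the 2 moved 4.34 log2 units apart. Of 28 sulfur and methionine genes 11 rose and 3 fell (median 0.27), among them CYS3 (3.35 ± 0.25, at least 2.52-fold), SAM1 (2.86 ± 0.07, at least 5.61-fold) and MET6 (2.58 ± 0.04).

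Of 29 genes for the use of poor nitrogen sources 8 fell (27.6%, against 19.8% of the array) and 3 rose (10.3%, against 13.9%). The median was -0.55, or -0.04 with dim sides at their bound, and 8 genes were above background on neither array. PUT1, proline oxidase, went from -0.38 to -4.72, a change of -4.34 ± 0.28 and at least 3.49-fold, and CAR1, arginase, fell by 2.70 ± 0.02 (at least 4.14-fold). BAP2, a permease for branched-chain amino acids in rich medium, rose by 3.30 ± 0.10; of 16 such permeases and their sensor it was the 1 that rose.

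Of the 3 nitrogen genes that rose, UGA1 and UGA2 act with GAD1, a member of the stress list. GAD1, UGA1 and UGA2 encode the 3 enzymes of the GABA shunt, by which glutamate is turned to succinate. GAD1 went from -3.80 to -0.18 (3.62 ± 0.07, at least 8.50-fold), UGA1 from -3.12 to -1.10 (2.02 ± 0.02, at least 3.95-fold) and UGA2 from -1.33 to 0.39 (1.71 ± 0.01, at least 3.18-fold). None of the 3 was above background in Cy5 at 5.5 h and all were at 40 min. On the 20 min array the change of UGA1 was -0.99.

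More general stress genes rose than fell: of 35, 11 rose and 3 fell (median 0.59), where at 20 min the median change had been -0.71. CTT1, the cytosolic catalase gene, stood at log2 ratios of 0.63, 0.68, 0.63 and 3.47 on the 4 arrays in order of time, a rise of 2.84 ± 0.20 (at least 5.85-fold). XBP1, for a repressor made under stress, went from -0.25 to 2.63, and MSC1 and RTN2 rose by 2.40 ± 0.18 and 2.29 ± 0.26. TMA10, a ribosome-associated protein gene, fell by 2.59 ± 0.08. Among genes of storage sugars, TPS2, of trehalose synthesis, rose by 3.05 ± 0.14 (-4.80 to -1.75, at least 7.16-fold) and GSY2, glycogen synthase, by 1.47 ± 0.10, while PGM2 fell by 1.93 ± 0.17 and GLG2 at least 1.19-fold (-2.40 ± 0.06). YOL053C-A, to which the array's files give the name DDR2, rose by 3.57 ± 0.10.

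**Figure D4:**
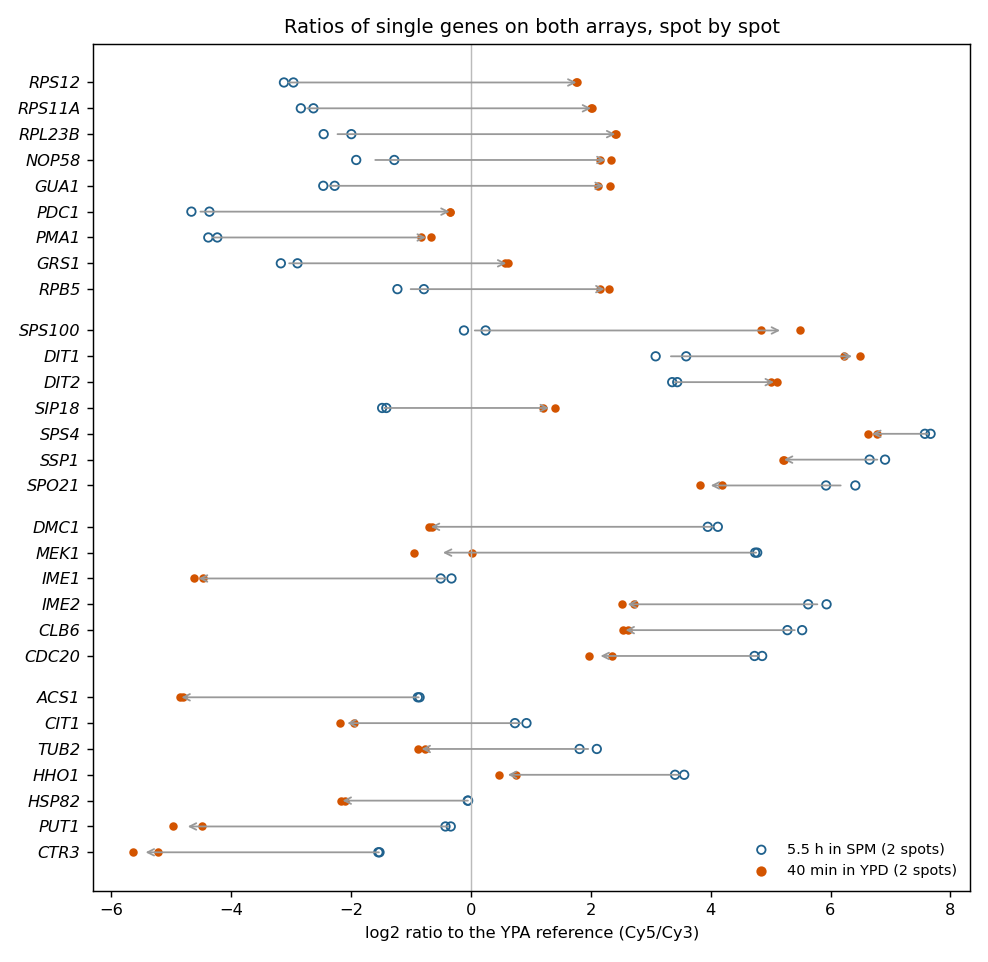
Log2 ratio to the YPA reference (horizontal axis) of 29 genes at 5.5 h in SPM (open circles) and at 40 min in YPD (filled circles), each of the 2 spots drawn; arrows run from mean to mean. In the upper block growth genes cross from below 0 towards or past it. In the second block SIP18 does so, SPS100 rises from 0.07 and SPS4 stays near 7. In the lower blocks meiotic and respiratory genes, with TUB2, HSP82, PUT1 and CTR3 among others, move left.

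In sterol synthesis 8 of 23 genes rose and 2 fell (median -0.25), and both falls lay before squalene in the pathway. ERG1, ERG7, ERG11, ERG2, ERG3 and ERG5, which act on squalene or later, rose, but only ERG11 was above background at 5.5 h as well (-2.15 to 0.85, up by 3.0 ± 0.17). ERG3 went from -3.45 to -0.19, at least 6.0-fold. Of the earlier steps HMG1, the main HMG-CoA reductase gene, rose by 2.28 ± 0.24 (at least 3.20-fold), and ERG20 rose with neither side above background, whereas ERG10 and IDI1 fell by 1.18 ± 0.03 and 1.72 ± 0.07. ERG6, ERG24, ERG25, ERG26, ERG27 and ERG4, which also act later, did not pass. Of 36 peroxisome and beta-oxidation genes 14 fell and 1 rose (median -0.64), among them POX1, acyl-CoA oxidase, by 2.35 ± 0.17 (at least 3.41-fold) and FAA1, an acyl-CoA synthetase gene, by 2.26 ± 0.32.

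Of 25 phosphate genes 12 fell and 1 rose (median -0.85, or -0.24 with dim sides at their bound). PHO81, whose protein inhibits the Pho85 kinase when phosphate is short, went from 1.78 to -1.26 (at least 5.09-fold lower) and SPL2 from -0.77 to -3.86 (at least 1.14-fold). All 4 genes of the polyphosphate polymerase, VTC1 to VTC4, fell, by 1.36 to 2.27 on the log2 scale. PHO84, the high-affinity transporter gene, had a change of -0.24 ± 0.26. Of 31 iron and copper genes 12 fell and 4 rose (median -0.70, or 0.0 with dim sides at their bound), and 12 were above background on neither array. The rises included both subunits of the high-affinity iron uptake complex, FET3 (-3.88 to -1.44, up by 2.44 ± 0.28, at least 2.82-fold) and FTR1 (-1.31 to 1.01, up by 2.32 ± 0.01, at least 1.75-fold), and the falls both high-affinity copper transporters, CTR3 (-1.53 to -5.42, at least 4.59-fold) and CTR1 (0.29 to -1.54), with the copper chaperone gene ATX1 (down by 2.08 ± 0.34).

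Histone and tubulin genes fell. None of 11 histone genes rose and 6 fell (median -1.27), HHO1, the linker histone gene, by 2.87 ± 0.31 (3.48 to 0.62) and HTZ1, the variant H2A gene, by 2.05 ± 0.19. The alpha- and beta-tubulin genes all fell, TUB2 by 2.78 ± 0.28, TUB1 by 2.67 ± 0.08 and TUB3 by 2.23 ± 0.13 (at least 3.89-fold), while ACT1, actin, changed by 0.56. Of 53 DNA replication genes 11 fell (20.8%, near the 19.8% of the array) and 3 rose (5.66%, against 13.9%), with a median of -0.25. RNR3, the damage-inducible ribonucleotide reductase gene, rose by 2.59 ± 0.47 (at least 3.02-fold), against -0.05 ± 0.21 for RNR1.

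Of 15 genes of G1 and Start 2 rose (13.3%) and 3 fell (20%), near the 13.9% and 19.8% of the array. CLN3, the cyclin gene upstream of Start, went from -3.02 to -1.16, up by 1.86 ± 0.36 (at least 1.94-fold), and SIC1, an inhibitor of the S-phase kinase, rose by 1.28 ± 0.10 (at least 1.74-fold). SWI4, of the transcription factor that acts after Cln3, fell by 1.81 ± 0.33, and its targets CLN1, CLN2 and PCL1 had changes of -1.0, -0.63 and -0.32 with signal below background on both arrays. Among growth regulators TOR1 rose by 2.75 ± 0.20 (at least 5.39-fold), and TOR2 had a change of -0.72 ± 0.99, its 2 spots far apart. IFH1 and SFP1, activators of ribosomal protein genes, rose by 2.82 ± 0.11 (at least 4.20-fold) and 2.02 ± 0.11, while FHL1 and RAP1 did not pass. Of 28 genes of mating and haploid cells 7 fell (25%, against 19.8% of the array) and 3 rose (10.7%, against 13.9%). STE18, of the G protein of the pheromone pathway, went from 4.54 to 2.44. STE3, the a-factor receptor, was above background at 5.5 h only and fell at least 1.57-fold.

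For several large complexes few genes passed 2-fold, though many did not pass the background cut-off: 28 of 57 splicing genes and 14 of 31 nuclear pore genes were above it on neither array. The share of members past 2-fold in either direction lay below that of the array for the nuclear pore (1 rose and 4 fell of 31), pre-mRNA splicing (6 and 3 of 57), mRNA decay (4 and 2 of 43) and the COPI and COPII coats (1 and 1 of 18), with medians between -0.07 and 0.18. Single members stood out: PRP43 and MTR4, helicases that also act in ribosome assembly or rRNA processing, rose at least 1.8-fold and 2.11-fold, and EDC2, an activator of decapping, fell by 2.93 ± 0.49. The vacuolar ATPase had 2 rises and 2 falls among 15 genes (13.3% each, against 13.9% and 19.8% of the array).

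The 53 lists held 1630 genes, and 439 of the 866 rises and 326 of the 1231 falls were in them, so that 427 rises and 905 falls belonged to none. Among these rises were AQR1, a multidrug transporter gene (0.09 to 4.00, at least 4.15-fold), and THI7, the thiamine transporter gene (-0.62 to 2.92, at least 5.96-fold). Among the largest falls measured on both sides were RDL2 (3.83 to 0.61, down by 3.21 ± 0.10), YUH1, for a ubiquitin hydrolase (3.96 to 0.85), LCB5, a sphingoid base kinase gene (2.95 to -0.02, down by 2.96 ± 0.03), and RGI2, a respiratory growth gene (0.24 to -2.75). YPL113C fell by 3.13, YPR027C by 3.02 and SLZ1, a sporulation gene, by 2.87, while NVJ2, of contacts between the endoplasmic reticulum and other membranes, rose by 3.65. SUC2, invertase, which glucose represses, fell by 2.61 ± 0.29, and was singled out after its value was seen, as were AQR1 and THI7.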

How the data were processed

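Total RNA of GF18 cells and of the reference was compared on 4 arrays, 1 per group, printed with PCR products of yeast ORFs, each in 2 adjacent spots. The authors scanned the slides and quantified them with QuantArray; the scanner files they deposited give, per spot and dye, linear intensity and the intensity of the surrounding background, not normalized. A value table, in which the authors gave log2 ratios less each array's median, served as an alternative. The dye fields and headers give Cy5 as the sample, whereas the labelling text names the dyes in the other order; ratios made from the intensities correlated at r = 0.996 and 0.998 with the 2 columns of the table, each of which has a median of 0, so Cy5 was taken as the sample. No dye swap was made.

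The normexp method (limma 3.58.1, R 4.3.3, offset 50) corrected the background, followed by global loess with control spots at weight 0 and centring on the median of the gene spots. Genes counted as above background when 1 of their spots or both lay over the buffer spots' 95th percentile. A fold with 1 side below it is a lower bound in Cy5 after loess and Aquantile scaling, and where neither side passed none was computed. Names came from RefSeq (assembly R64) for 5663 of 6218 ORFs, and 555 kept the file's name. Of the 6159 probes of the value table, 5562 carry 1 gene symbol, 0 carry several and 597 none; 5515 genes were matched.

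Members and gene lists were chosen with earlier results of these data known, and the isozyme pairs were chosen after values were seen. Named were NDT80 and SPS4, the 12 largest rises and falls among genes measured in both channels on both arrays, the 8 largest such rises outside the ribosomal proteins, the 3 largest calls of each list in each direction, the cell type markers, and, after their values were seen, further members of lists and pairs and the genes said to be so. The steps were tested on a simulated pair of arrays in which a small set of bright genes was changed. That test did not cover dim genes or a change as broad as the one seen here. Promoter sequences were not analysed here, and 1 gene is not reported here.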

Additional observations from a re-analysis of the deposited data

How the results depend on the processing

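With 1 array per side no spread between cultures was measured, and depth is limited by signal over background. No paired analysis was possible because each group holds 1 array and no replicate number. The counts of 866 rises and 1231 falls stayed within 1.5 times under median centring, print-tip loess, the methods' own steps, no background correction, the value table, the Cy5 channel alone, either spot alone, and bounds for dim sides, and also with the Arabidopsis control spots as background, an alternative chosen after seeing the data. A 1.5-fold threshold gave 1276 and 2017, a 4-fold threshold 391 and 241, and genes above background in both channels on both arrays 296 and 555. The share of rises among calls was 41.3%, 49.4% under median centring (1006 rises and 1031 falls) and 34.8% over the genes measured throughout. Over all lists and alternatives, 439 list medians moved by less than the SD between duplicate spots (0.305) and 38 by more, and no median past 2-fold changed sign. Of the 38 moves, 17 came from taking dim sides at their bound, which left 36 medians within that SD. Values of single named genes were less stable: 449 moved by more than that SD and 1545 by less, with 153 of the moves under print-tip loess and 118 under the Cy5 channel alone, so the SD between spots understates their error. The vacuolar ATPase, storage sugar, hexose transport, permease, splicing and polymerase II medians lay near 0 and changed sign under some scalings. CIT2 changed sign under print-tip loess, from -1.96 to 0.40; the cause was not tested.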
